A study of Mus musculus with 12 samples.

Results

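Transcripts of 10 platelet and megakaryocyte genes were followed in bulk RNA sequencing libraries of mouse peritoneal macrophages, as a sign of RNA carried over with platelets that the cells had been given. The genes Pf4, Ppbp, Itga2b, Itgb3, Gp1ba, Gp9, Gp5, Tubb1, Treml1 and Clec1b were found by symbol, and each had 1 row of counts among the 34948 named rows of the table. The 12 libraries formed 4 groups of 3: 2 genotypes, each with blank cells and with cells given platelets coated by the antibody R300. WT stands for the genotype label Ern1fl/fl, in which Ern1 carries recombination sites and no Cre is named. KO stands for Mac-Ern1KO, whose Cre driver the labels do not name. All mice were labelled male and 8 weeks old, and had received 3% Brewer thioglycolate in the peritoneum 3 days before harvest. Cells of the R300 groups spent 2 h with the platelets, which R300 coats through CD42. Blank cells have the treatment label Con, which does not say whether they received uncoated platelets, no platelets or the same time in culture, so platelets, antibody and time cannot be told apart in what follows. The series text calls the 3 libraries of a group biological replicates and does not say whether cells of several mice were pooled.

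Platelets have no nucleus and carry a small store of RNA inherited from the megakaryocytes that shed them. Pf4 and Ppbp encode chemokines packed into platelet granules. Itga2b and Itgb3 encode the integrin chains that together bind fibrinogen. Gp1ba, Gp9 and Gp5 encode chains of the CD42 complex, the receptor for von Willebrand factor to which R300 binds. Tubb1 encodes the beta tubulin of the platelet's microtubule ring, Treml1 a granule membrane protein shown on activated platelets, and Clec1b the receptor for podoplanin, CLEC-2. Pf4, Itgb3 and Clec1b are also known from macrophages or other myeloid cells, whereas Gp9, Gp5 and Tubb1 are textbook markers of the platelet lineage.

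Positions are those of the GENCODE annotation of GRCm38. Pf4 (chromosome 5, 90772435 to 90773383) and Ppbp (chromosome 5, 90768518 to 90770063) lie 2372 bases apart in the CXC chemokine cluster. Gp1ba lies on chromosome 11 at 70639122 to 70642036 and Clec1b on chromosome 6 at 129397297 to 129409335. The exons of Clec1b share 184 bases (3.61%) with Clec9a on the same strand, and the other 9 genes share no exonic base with another gene. Of the members, 4 were picked to show their sequence: the abundant chemokine gene Pf4, its neighbour Ppbp, Clec1b and Gp1ba. Clec1b differed most between R300 and blank cells, and Gp1ba encodes a chain of the protein that R300 binds. The 250 bases before the start of these 4 genes are shown, and no test below used these bases. They come from RefSeq with build GRCm38.p6, and capitals mark matches to the motifs AGATAA (or its variant AGATAG) and, with another first letter, TGATAA (or its variant TGATAG) on either strand, letters that GATA factors, the regulators of megakaryocytes and mast cells, are known to bind.
Pf4, chr5:90772185-90772434, plus strand: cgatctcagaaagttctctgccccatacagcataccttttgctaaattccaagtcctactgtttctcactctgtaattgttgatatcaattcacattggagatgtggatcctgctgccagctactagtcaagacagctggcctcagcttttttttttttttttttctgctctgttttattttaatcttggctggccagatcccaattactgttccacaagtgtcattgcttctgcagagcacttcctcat
Ppbp, chr5:90768268-90768517, plus strand: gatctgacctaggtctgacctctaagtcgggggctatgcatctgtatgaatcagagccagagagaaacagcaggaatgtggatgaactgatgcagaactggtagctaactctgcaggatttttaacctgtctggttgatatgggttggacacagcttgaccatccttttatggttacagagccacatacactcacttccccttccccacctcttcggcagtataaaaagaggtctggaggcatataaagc
Clec1b, chr6:129397047-129397296, plus strand: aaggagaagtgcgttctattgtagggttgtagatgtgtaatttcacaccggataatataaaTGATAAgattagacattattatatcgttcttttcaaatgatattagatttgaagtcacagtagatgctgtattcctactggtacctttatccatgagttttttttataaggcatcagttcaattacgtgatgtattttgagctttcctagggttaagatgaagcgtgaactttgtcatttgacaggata
Gp1ba, chr11:70638872-70639121, plus strand: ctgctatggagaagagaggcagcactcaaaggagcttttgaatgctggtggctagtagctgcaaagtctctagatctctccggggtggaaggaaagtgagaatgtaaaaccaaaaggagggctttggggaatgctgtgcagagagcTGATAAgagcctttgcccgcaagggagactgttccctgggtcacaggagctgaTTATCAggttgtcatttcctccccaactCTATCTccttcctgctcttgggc
Such letters occurred in 3 of the 9 members with a RefSeq window, namely Gp1ba and Gp5 with 3 matches each and Clec1b with 1, and in 26.5% of all 32851 windows of this length. A match is a description of the letters and was not tested as a binding site.

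The libraries held 21765586 to 44273655 counts each. Levels are in CPM, a library's counts scaled to a common total with TMM normalisation. Xist, a transcript of female cells, stood at 143 to 590 CPM in 8 libraries, against the male label, and at most at 0.0742 CPM in 1 library of each group (blank 3 and R300 2 of WT, blank 3 and R300 3 of KO). All 12 libraries held Y-linked transcripts, at 42.6 to 224 CPM. The division by Xist is used below as an apparent batch, since several platelet genes followed it. The R300 libraries WT 1 and 3, and KO 1 and 2, were nearly alike, with a median chi-square of 1.37 and 1.53 per gene against 6.15 to 10.3 for other pairs within a group. Whether these are independent samples was not tested. The p-values measure the spread between these libraries. The macrophage markers Adgre1, Csf1r and Cd68 stood at 619, 1860 and 1040 CPM on average. In bulk libraries, fewer cells of a type and less RNA per cell cannot be told apart.

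The 10 transcripts made up 0.00559% to 0.0133% of all counts in a library, and most of that was Pf4. Their summed level in WT was 80.9 ± 20.8 CPM for blank and 93.1 ± 27.9 CPM for R300 libraries (SD, n = 3 libraries each). The KO sums were 96 ± 22.7 CPM for blank and 113 ± 32.8 CPM for R300 libraries. The groups overlapped in both genotypes, and the log2 ratio of R300 to blank was 0.20 in WT and 0.24 in KO. Pf4 alone gave 78.2% to 83.7% of the sum on average over a group. Without Pf4, Itgb3 and Clec1b, the 3 genes that macrophages are also known to make, the other 7 summed to 9.56 ± 1.58 CPM for blank and 9.87 ± 1.87 CPM for R300 libraries of WT, and to 9.04 ± 1.79 and 9.98 ± 1.16 CPM for those of KO. The log2 ratio of that smaller sum was 0.05 in WT and 0.14 in KO. Its range in WT R300 (8.41 to 12.0 CPM) lay across that in WT blank (7.97 to 11.1 CPM). Itgb3 and Clec1b, left out of it, were the 2 members whose WT groups did not overlap. Both were higher with R300, where 6.74% of all tested genes were higher without overlap, and 12.8% did not overlap in either direction. Within it, mean Ppbp was higher with R300, from 1.31 to 2.10 CPM in WT and from 1.38 to 3.23 CPM in KO. Mean Treml1 was lower, from 3.70 to 3.02 CPM in WT and from 3.30 to 1.95 CPM in KO. Without Pf4 alone, the sum of the other 9 was 14.7 ± 1.33 CPM (13.5 to 16.1) for WT blank and 18.3 ± 2.22 CPM (16.3 to 20.7) for WT R300 libraries, which did not overlap. The KO libraries overlapped, at 15.8 ± 1.28 CPM (14.4 to 16.8) and 17.5 ± 1.90 CPM (15.7 to 19.5).

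**Figure D1:**
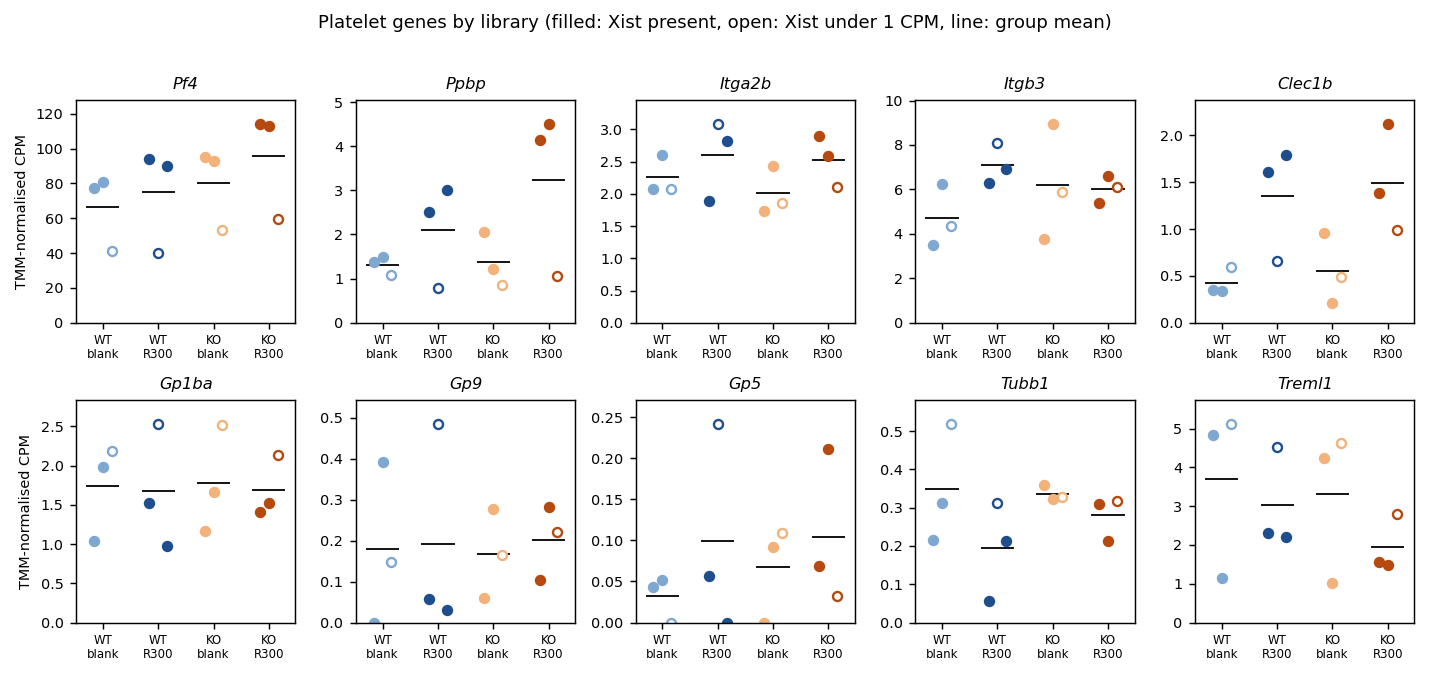
Level of each platelet gene in TMM-normalised CPM (y axis, from 0, scaled per gene) in every library of the 4 groups (x axis); filled points are the 8 libraries with Xist, open points the 4 without, and lines are group means. Pf4 and Ppbp are lowest at the open points in every group, Clec1b is higher in both R300 groups than in their blank groups, and the CD42 genes Gp1ba, Gp9 and Gp5 overlap between R300 and blank.

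None of the 8 tested members passed the test for R300 against blank in either genotype. Counts were tested with edgeR's quasi-likelihood test over 16546 genes, with a call at Benjamini-Hochberg adjusted p under 0.05. Of the members, 8 passed the filter on low counts and 2, Gp9 and Gp5, did not. In WT, 0 of 8 were called, where 0.623% of all genes were (0.550% higher and 0.0725% lower). There 1 of 8 had an unadjusted p under 0.05 (8.72% of all genes), and DESeq2 called 0 (363 of 15576 genes). In KO, 0 of 8 were called, where 0.834% of all genes were (0.695% higher and 0.139% lower). There 1 of 8 had an unadjusted p under 0.05 (8.78%), and DESeq2 called 0 (442 of 15576 genes). The median log2 change of the 8 was 0.19 in WT and 0.11 in KO, against 0.00 over all genes in both. With the R300 response averaged over the genotypes, 0 of 8 were called where 3.64% of all genes were (2.43% higher and 1.21% lower). Of the 8, 2, Clec1b and Ppbp, had an unadjusted p under 0.05 (15.6%). DESeq2 called 1 of the 8, Clec1b, and 1222 of 16539 genes in all. The median of the averaged change was 0.24, with 5 values above and 3 below 0.

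**Figure D2:**
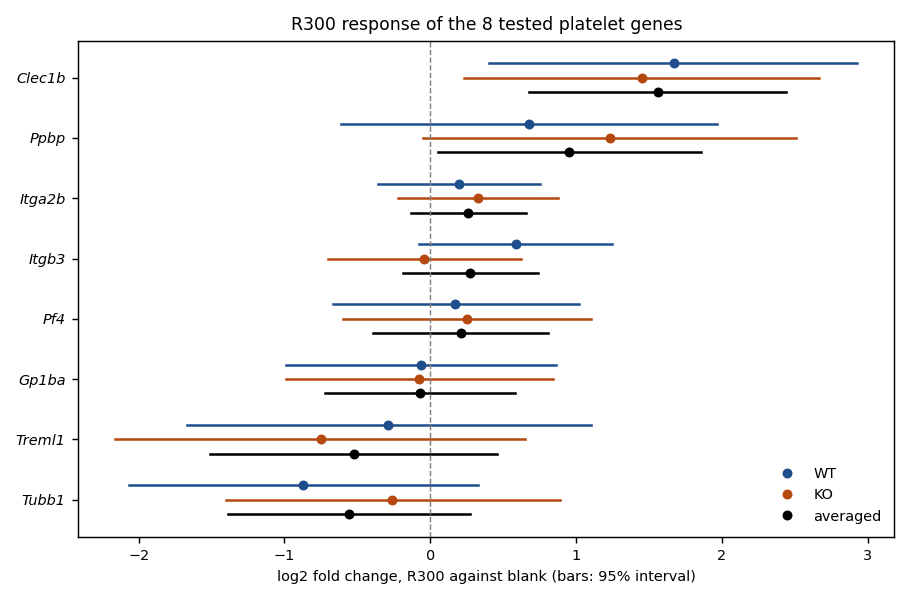
Log2 fold change of R300 against blank (x axis) for the 8 platelet genes that were tested (y axis), in WT, in KO and averaged over the genotypes; points are edgeR estimates and bars their 95% intervals. Clec1b lies highest, at 1.67 in WT and 1.45 in KO, and the averaged intervals of the 6 genes other than Clec1b and Ppbp contain 0.

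Among the granule chemokines, Pf4 was by far the more abundant. Its level stood at 77.2, 80.5 and 41.0 CPM across WT blank libraries 1 to 3, and at 93.9, 40.2 and 90.2 CPM across their R300 counterparts. In KO, the blank libraries held 94.9, 92.8 and 53.0 CPM and their R300 counterparts 114, 113 and 59.4 CPM. The lowest library of each group was the one without Xist, and the R300 and blank groups overlapped in both genotypes. With R300, Pf4 reached 1.13-fold in WT (log2 0.17, SE 0.38, edgeR adjusted p = 0.963). Its KO ratio was 1.19-fold (log2 0.25, SE 0.38, edgeR adjusted p = 0.971). The 95% interval of the averaged change ran from 0.765-fold to 1.76-fold. In the 8 libraries with Xist, Pf4 ran from 77.2 to 94.9 CPM in blank cells and from 90.2 to 114 CPM in R300 cells. Within each genotype, the R300 libraries with Xist lay above the blank libraries with Xist. Among the libraries with Xist alone, the averaged change of Pf4 narrowly missed the threshold (edgeR adjusted p = 0.0594). Those R300 libraries are the 2 near-alike pairs, whose independence was not tested. In the 4 libraries without Xist, Pf4 was 41.0 and 53.0 CPM in blank cells and 40.2 and 59.4 CPM in R300 cells.

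Ppbp, its neighbour, was present at a few CPM. It stood at 1.38, 1.48 and 1.08 CPM across WT blank libraries 1 to 3, and at 2.51, 0.796 and 3.00 CPM across their R300 counterparts. The KO blank libraries held 2.06, 1.22 and 0.846 CPM and their R300 counterparts 4.14, 4.5 and 1.05 CPM. The R300 libraries with Xist were the 4 highest of the 12, and those without Xist lay within or below the blank range of their genotype. The change with R300 was 1.60-fold in WT (log2 0.68, SE 0.59, edgeR adjusted p = 0.851), 2.34-fold for KO (log2 1.23, SE 0.58, adjusted p = 0.601) and 1.94-fold averaged (log2 0.95, SE 0.41, unadjusted p = 0.0413, adjusted p = 0.293). Among the libraries with Xist alone, the averaged log2 change was 1.17 and passed (adjusted p = 0.0297), with means of 1.54 CPM in blank and 3.54 CPM in R300 cells (n = 4 each). Those 4 R300 libraries are the 2 near-alike pairs, so that this value rests on libraries whose independence was not tested. In the libraries without Xist the means were 0.961 and 0.923 CPM (n = 2 each). The difference between the responses of the 2 kinds of library, a test chosen after these values were seen, was -1.23 on the log2 scale (SE 0.39, unadjusted p = 0.0112, edgeR adjusted p = 0.629) and did not pass over all genes. With a term for the libraries without Xist, the averaged log2 change was 0.81 (edgeR unadjusted p = 0.00774, adjusted p = 0.0709) and did not pass. Beyond that term, the part of the apparent batch in the averaged change was not tested. Without 1 library of each near-alike pair, the averaged change of Ppbp was 0.62 (adjusted p = 0.856), and its adjusted p ran from 0.0297 to 0.856 over the alternatives.

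Both chemokine genes were set beside 4 tested genes of the same cluster, Cxcl1, Cxcl2, Cxcl3 and Cxcl5, which encode attractants of neutrophils. None of the 4 was called for R300 against blank averaged over genotypes. Cxcl5 was at 2.32-fold (log2 1.21, SE 0.63, edgeR adjusted p = 0.398) and Cxcl2 at 0.800-fold (log2 -0.32, SE 0.44, adjusted p = 0.796). Over the 12 libraries, the log2 level of Pf4 had a Pearson correlation of 0.83 with Ppbp, 0.88 with Cxcl5, 0.82 with Cxcl3 and 0.06 with Cxcl1. For Ppbp the values were 0.88 with Cxcl5 and 0.00 with Cxcl1. These are descriptions over libraries that share treatments and the apparent batch. Of all genes, those most like Pf4 were Ceacam1 (r = 0.976), Ecm1 (0.976) and Tcn2 (0.974), and those most like Ppbp were Rhobtb1 (0.975), Rab6a (0.968) and Cdkn2d (0.965).

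Neither integrin gene passed the test between R300 and blank cells. Itga2b, the chain that defines the platelet integrin, stood at 2.08, 2.60 and 2.08 CPM across WT blank libraries 1 to 3, and at 1.89, 3.08 and 2.82 CPM across their R300 counterparts. In KO, the blank libraries held 1.73, 2.43 and 1.86 CPM and their R300 counterparts 2.90, 2.58 and 2.10 CPM. It had the narrowest range of the members, 1.78-fold from lowest to highest library, and the groups overlapped. The averaged change was 1.20-fold (log2 0.26, SE 0.18, edgeR adjusted p = 0.531; 95% interval 0.915-fold to 1.58-fold). Itgb3, which also pairs with the alpha-v chain in macrophages, stood at 3.50, 6.25 and 4.37 CPM across WT blank libraries 1 to 3, and at 6.29, 8.07 and 6.94 CPM across their R300 counterparts. The KO blank libraries held 3.77, 8.94 and 5.87 CPM and their R300 counterparts 5.41, 6.59 and 6.10 CPM. All 3 WT R300 libraries lay above the WT blank libraries, by a margin of 6.29 to 6.25 CPM, and the KO groups overlapped. The changes were 1.5-fold in WT (log2 0.59, SE 0.30, edgeR adjusted p = 0.646), against 0.973-fold for KO (log2 -0.04, SE 0.30, adjusted p = 0.999), and the difference of these responses was -0.63 (SE 0.42, adjusted p = 1.00). Of 6 genes for other integrin chains, none was called. The alpha-v gene Itgav stood at 235 CPM on average and 1.13-fold with R300 (log2 0.17, SE 0.08, adjusted p = 0.340), and Itga5 at 0.823-fold (log2 -0.28, SE 0.13, adjusted p = 0.341).

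For the CD42 complex, the target of the coating antibody, Gp1ba, Gp9 and Gp5 were measured, and Gp1bb was not analysed here. None of the 3 showed a higher level in R300 libraries that was detectable at this depth. Gp1ba stood at 1.04, 1.98 and 2.19 CPM across WT blank libraries 1 to 3, and at 1.52, 2.53 and 0.969 CPM across their R300 counterparts. In KO, the blank libraries held 1.17, 1.66 and 2.51 CPM and their R300 counterparts 1.41, 1.52 and 2.13 CPM. Its highest library in every group was the one without Xist. The change was 0.957-fold in WT (log2 -0.06, SE 0.42, edgeR adjusted p = 0.991), 0.949-fold for KO (log2 -0.08, SE 0.42, adjusted p = 0.999) and 0.953-fold averaged, with a 95% interval of 0.607-fold to 1.5-fold. The sign of these values turned under several alternatives, within -0.48 to 0.24 on the log2 scale. Gp1ba was most like Usp49 (r = 0.963), 9930022D16Rik (0.945) and Gm49972 (0.940) over the 12 libraries.

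Gp9 was too low to be tested. Its counts were 0, 15 and 4 for WT blank libraries 1 to 3 and 2, 14 and 1 for WT R300. KO had 2, 12 and 6 with blank and 3, 8 and 7 with R300 treatment. The 0 in WT blank 1 allows up to 0.130 CPM (3 counts), and the highest library, WT R300 2, held 0.485 CPM. Summed over a group, Gp9 went from 19 counts (blank) to 17 (R300) in WT, and from 20 to 18 in KO. Relative to depth, R300 was 0.974-fold blank over both genotypes, with an exact 95% interval of 0.599 to 1.58 that covers counting error only. Gp5 was lower still, with 1, 2 and 0 counts for WT blank libraries and 2, 7 and 0 for WT R300. KO had 0, 4 and 4 with blank and 2, 6 and 1 with R300 treatment. Its R300 to blank ratio over both genotypes, 18 against 11 counts, was 1.78 (counting interval 0.794 to 4.16). WT R300 2 and KO R300 2 held most of the R300 counts of Gp5, 7 and 6.

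Tubb1, the platelet tubulin, was near the filter and was not called in either direction. Its counts were 5, 12 and 14 for WT blank libraries and 2, 9 and 7 for WT R300. KO had 12, 14 and 12 with blank and 9, 6 and 10 with R300 treatment. In CPM, KO R300 (0.212 to 0.318) lay below KO blank (0.323 to 0.359), and the WT groups overlapped. The changes were 0.546-fold in WT (log2 -0.87, SE 0.55, edgeR adjusted p = 0.743), against 0.837-fold for KO (log2 -0.26, SE 0.52, adjusted p = 0.978), and neither passed. Counting groups that did not overlap, 2 of 8 members were higher with R300 in WT (Itgb3 and Clec1b; 6.74% of all genes) and 0 lower (6.09%), 1 was higher in KO (Clec1b; 6.64%) and 1 lower (Tubb1; 5.68%). The non-overlapping share in either direction was 12.8% of all genes in WT and 12.3% in KO. With both genotypes in one comparison, 0 of 8 had groups that did not overlap (4.01% of all genes, 2.57% higher and 1.44% lower).

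Treml1, the receptor of activated platelets, varied 5.03-fold from its lowest to its highest library. It stood at 4.84, 1.15 and 5.12 CPM across WT blank libraries 1 to 3, and at 2.31, 4.53 and 2.21 CPM across their R300 counterparts. The KO blank libraries held 4.25, 1.02 and 4.64 CPM and their R300 counterparts 1.55, 1.49 and 2.80 CPM. Both blank libraries numbered 2 were the lowest of their genotype, and the library without Xist was the highest of each group. The changes were 0.820-fold in WT (log2 -0.29, SE 0.63, edgeR adjusted p = 0.963), against 0.593-fold for KO (log2 -0.75, SE 0.64, adjusted p = 0.896). Treml1 lies on chromosome 17 at 48359916 to 48367176, and its nearest neighbour, 5769 bases away on the same strand, is Trem2, a lipid receptor of macrophages at 361 CPM. Over the 12 libraries Treml1 correlated at 0.74 with Trem2, -0.81 with Trem1 and -0.94 with Trem3, the last named after its value was seen. Of 5 tested genes of the TREM cluster none was called, with Trem1, an amplifier of inflammation, at 3.03-fold (log2 1.60, SE 0.57, adjusted p = 0.188) and Treml2 at 0.789-fold (log2 -0.34, SE 0.28, adjusted p = 0.626). Genes most like Treml1 were Sfxn2 (r = 0.975), Epb41l1 (0.963) and the proton channel gene Hvcn1 (0.960).

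Clec1b, the gene of CLEC-2, showed the largest difference of the members. Its level stood at 0.346, 0.339 and 0.593 CPM across WT blank libraries 1 to 3, and at 1.61, 0.658 and 1.79 CPM across their R300 counterparts. In KO, the blank libraries held 0.957, 0.208 and 0.491 CPM and their R300 counterparts 1.38, 2.12 and 0.985 CPM. In each genotype all 3 R300 libraries lay above the 3 blank libraries, by a narrow margin in both (0.658 to 0.593 CPM in WT, 0.985 to 0.957 CPM in KO). The change was 3.18-fold in WT (log2 1.67, SE 0.57, edgeR adjusted p = 0.362), 2.73-fold for KO (log2 1.45, SE 0.55, adjusted p = 0.419) and 2.94-fold averaged (log2 1.56, SE 0.40, unadjusted p = 0.00247, adjusted p = 0.0595; 95% interval 1.60-fold to 5.41-fold). The averaged value missed the threshold, and passed with DESeq2 (adjusted p = 0.00464), without the filter on low counts (0.0415), with a term for the libraries without Xist (0.0382), without WT R300 2 (0.0297) and without KO blank 1 (0.0330). Over all genes those fits called 1222, 554, 1492, 862 and 444 in that order, against 603 in the main fit. Over its alternatives adjusted p ran from 0.00464 to 0.366, the highest being without WT R300 3 and KO R300 2, 1 of each near-alike pair (log2 1.26). Clec1b was higher in R300 than in blank cells in both kinds of library, with means of 1.72 against 0.462 CPM with Xist (n = 4 each, the R300 libraries being the near-alike pairs) and 0.822 against 0.542 CPM without (n = 2 each). The difference between those responses was not called (log2 -1.35, SE 0.75, adjusted p = 0.914).

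Clec1b sits in a cluster of C-type lectin receptor genes. Of 6 tested neighbours 2 rose in the averaged comparison, where 2.43% of all genes were called higher. Clec7a, which encodes the glucan receptor Dectin-1, rose from 535 to 1130 CPM in WT and from 505 to 1240 CPM in KO (averaged log2 1.18, SE 0.14, edgeR adjusted p = 8.68e-04). Clec1a rose from 0.361 to 0.736 CPM in WT and from 0.352 to 0.990 CPM in KO (averaged log2 1.27, SE 0.25, adjusted p = 0.0196). Clec9a, a receptor for exposed actin on dendritic cells that is given here for its shared exonic bases, was at 2.31-fold (log2 1.21, SE 0.31, adjusted p = 0.0583), and Olr1, a receptor for oxidised lipoprotein, at 1.93-fold (log2 0.95, SE 0.38, adjusted p = 0.247). Clec12a and Clec2d were at 0.756-fold and 0.904-fold without passing. Over the 12 libraries Clec1b correlated at 0.90 with Clec7a, 0.83 with Clec9a, 0.78 with Ppbp and -0.72 with Clec12a. Whether reads on the 184 shared bases were given to Clec1b or Clec9a is not stated in the sources used here.

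**Figure D3:**
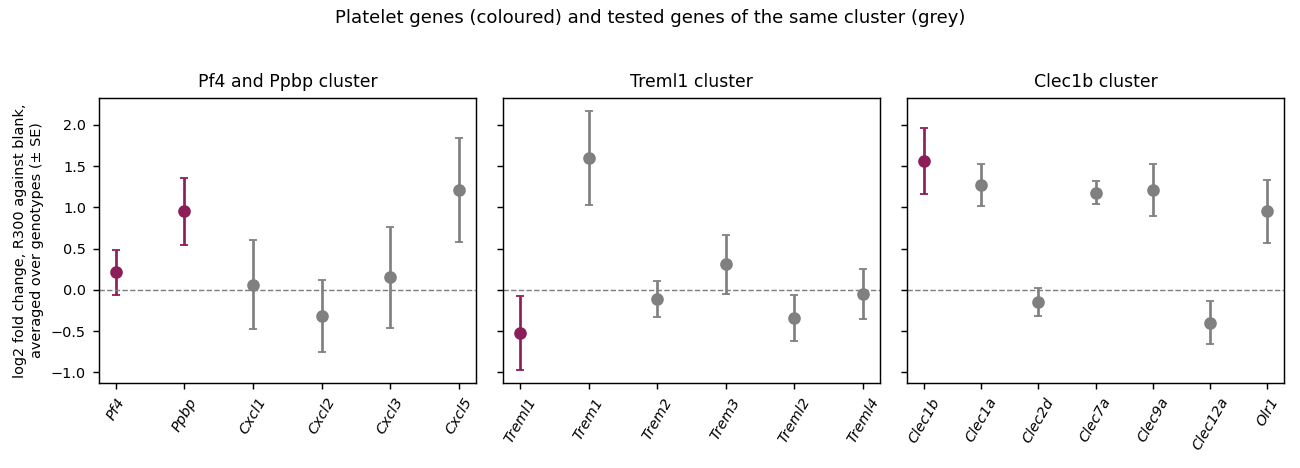
Averaged log2 fold change of R300 against blank with its SE (y axis) for platelet genes (coloured) and the tested genes of the same genomic cluster (grey), in 3 panels. In the lectin panel Clec1b (1.56) stands beside Clec1a (1.27), Clec9a (1.21) and Clec7a (1.18), while Treml1 (-0.52) and its neighbours spread around 0 apart from Trem1 (1.60).

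To rank the members against each other, levels were taken per kilobase of exon, whereas CPM values, sums and counts given elsewhere are not scaled by length. On that scale Pf4 was first at 110 CPM per kb averaged over the 12 libraries, with all its libraries (55.7 to 158) above every other member. Treml1 (2.13, range 0.725 to 3.65) and Ppbp (1.85, range 0.735 to 4.15) came next with overlapping ranges. Itgb3 (1.02), Gp1ba (0.633) and Itga2b (0.430) followed, each overlapping its neighbour in the order. Gp9 (0.210), Tubb1 (0.206) and Clec1b (0.187) did not differ beyond their spread, and Gp5 was last (0.0345). The 2 chemokine genes, which share a locus and a granule, were thus far apart in these libraries, and Pf4 stood above the platelet-restricted Gp9, Tubb1 and Gp5 in every library.

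**Figure D4:**
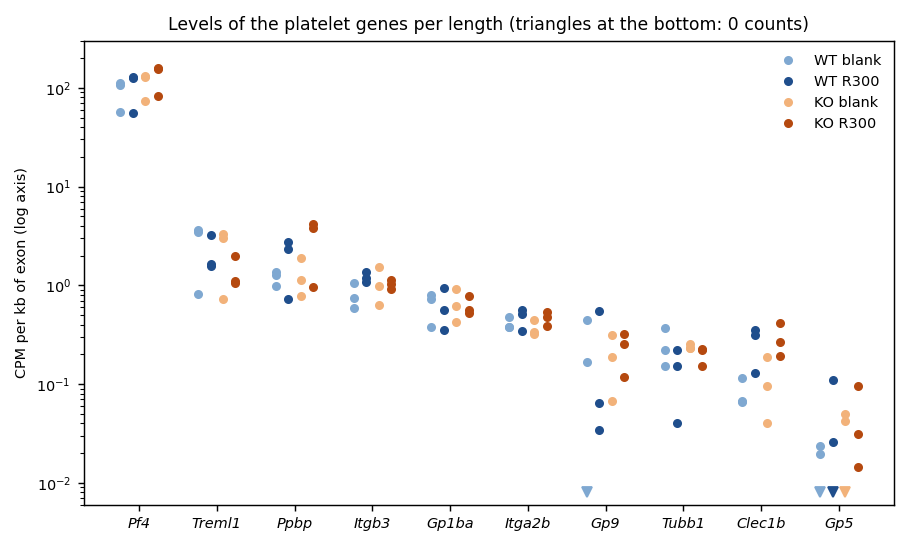
Level of each platelet gene in CPM per kilobase of exon (y axis, log scale) in the 12 libraries, genes in order of their mean (x axis), with colours for the 4 groups; triangles at the bottom mark libraries with 0 counts. Pf4 stands apart above all others (55.7 to 158), and Gp9, Tubb1, Clec1b and Gp5 lie at the low end.

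No member passed the test between the genotypes. In R300 cells, 0 of 8 were called between KO and WT, where 0% of all genes were. There 0 of 8 had an unadjusted p under 0.05 (1.96% of all genes), and DESeq2 called 0 (14 of 16539 genes). Log2 differences ran from -0.63 for Treml1 to 0.61 for Ppbp, and Pf4 was at 1.28-fold (log2 0.35, SE 0.38, edgeR adjusted p = 1.00; 95% interval 0.710-fold to 2.30-fold). In blank cells 0 of 8 were called, where 0% of all genes were, and 0 had an unadjusted p under 0.05 (1.09%). DESeq2 called 0 (4 of 16539 genes), and log2 differences ran from -0.17 for Itga2b to 0.39 for Itgb3. For none of the 8 did the R300 responses of the genotypes pass the test of their difference (0% of all genes called, 0.574% at an unadjusted p under 0.05, with 0 of the members in either and 0 by DESeq2), with log2 values from -0.63 for Itgb3 to 0.62 for Tubb1. For KO against WT, 0 of 8 members had groups that did not overlap in R300 cells (7.91% of all genes, 4.03% higher and 3.87% lower) or in blank cells (3.70%, 1.74% higher and 1.96% lower).

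Other genes of platelets and megakaryocytes were measured beside the members. Of 25 further genes listed, 23 were analysed here and 15 passed the filter. For R300 against blank averaged over genotypes 0 rose and 1 fell (2.43% and 1.21% of all genes). The median log2 change of the 15 was 0.32 with 10 values positive, against 0.00 over all genes. The summed level of the 23 was 255 to 309 CPM for WT blank and 333 to 349 CPM for WT R300 libraries. It was 301 to 417 and 328 to 507 CPM for those of KO. Most of this sum came from Vwf, F5 and Nbeal2, at 133, 95.9 and 76.3 CPM over all libraries. In WT, F5 went from 47.7 to 84.3 CPM, Vwf from 127 to 143 CPM and Nbeal2 from 72.7 to 72.5 CPM. The gene that fell was P2ry1, a receptor for ADP, at 0.428-fold (log2 -1.22, SE 0.26, edgeR adjusted p = 0.0241), from 8.75 to 3.87 CPM in WT and from 8.70 to 3.59 CPM in KO. Ctla2a, a protease inhibitor, was at 2.72-fold (log2 1.44, SE 0.45, adjusted p = 0.119), and coagulation factor V (F5) at 1.88-fold (log2 0.91, SE 0.42, adjusted p = 0.330). Vwf, which encodes von Willebrand factor, the ligand of CD42, had the highest CPM of them, 133, without scaling by length. It was at 1.08-fold with R300 (log2 0.11, SE 0.25, adjusted p = 0.893). It stood at 180 to 190 CPM in the 4 libraries without Xist and at 75.1 to 126 CPM in the other 8. The 8 below the filter, given after their values were seen, were not tested. In all 12 libraries the collagen receptor gene Gp6 had 20 counts, Mpig6b 7, Alox12 42, F2rl3 62, Tbxa2r 63, Trpc6 35, Slc35d3 20 and Mmrn1 2. Their WT means went in both directions, such as 0.0702 to 0 CPM for Gp6 and 0.0433 to 0.202 CPM for Trpc6. WT R300 3 alone held 17 counts of Trpc6.

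Among 16 platelet genes that leukocytes are also known to make, 1 rose and 0 fell in the averaged comparison (2.43% and 1.21% of all genes). That gene was Thbs1, which encodes thrombospondin 1 of platelet granules and of activated macrophages, at 10.3-fold (log2 3.36, SE 0.40, edgeR adjusted p = 9.68e-04), from 1480 to 16200 CPM in WT and from 2580 to 24900 CPM in KO. Clu was at 1.82-fold (log2 0.87, SE 0.38, adjusted p = 0.3) and Cd36, a receptor shared by platelets and macrophages, at 1.11-fold (log2 0.16, SE 0.08, adjusted p = 0.407). Beside Thbs1, the platelet-restricted Gp9, Tubb1 and Gp5 were at 0.974-fold, 0.676-fold and 1.78-fold over both genotypes. Their counting intervals were 0.599 to 1.58, 0.451 to 1.00 and 0.794 to 4.16. These 3 have few counts, and other members went either way in the averaged edgeR fit, with none called. Ppbp was at 1.94-fold and Itga2b at 1.20-fold, against 0.953-fold for Gp1ba and 0.697-fold for Treml1.

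Markers of other cells were measured beside the members, and their part in the values above was not tested. Over all genes, 2.43% were called higher with R300 in the averaged comparison and 1.21% lower. Of 9 tested mast cell and basophil markers, 3 rose in that comparison and all 9 values were positive (median log2 0.94). The 3 were Gata2, which encodes a GATA factor of mast cells and megakaryocytes, at 4.17-fold (log2 2.06, SE 0.16, edgeR adjusted p = 4.19e-05), Tpsb2 at 1.85-fold and Mcpt4 at 2.20-fold. The summed mast cell level was 16.3 to 26.6 CPM for WT blank and 46.9 to 65.9 CPM for WT R300 libraries, and 29.0 to 57.3 and 59.0 to 116 CPM for those of KO. Globin and other erythroid transcripts summed to 3.49 to 323 CPM for WT blank and 8.31 to 112 CPM for WT R300 libraries, and to 6.5 to 141 and 11.1 to 72.3 CPM for those of KO, with Hbb-bs at 0.616-fold and Hba-a1 at 0.588-fold averaged. No erythroid gene of 6 tested was called, and the libraries without Xist were the lowest of their group. All 10 B cell markers had negative values (median log2 -0.88) with none called, and of 8 tested neutrophil markers none was called. Among 12 macrophage markers 1 rose, Cd14, which encodes a co-receptor for lipopolysaccharide, at 2.82-fold (log2 1.49, SE 0.32, adjusted p = 0.0261), while Lyz2 was at 1.01-fold.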

How the data were processed

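Poly(A) RNA of 12 libraries was measured. The submitters' processing notes list featureCounts 2.0.3, HISAT2 with version 2, fastp 0.23.4, FastQC 0.12.1, DESeq2 1.42.0 and the build mm10. The kit named in the labels' protocols does not mark strand. The authors deposited raw counts per gene symbol (35050 rows), which each sample file repeats. The 102 rows without a symbol (0.0232% to 0.0328% of a library's counts) were left out.

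Counts were tested with edgeR 4.0.16 in R 4.3.3 (TMM, filterByExpr with the 4 groups, robust quasi-likelihood, 1 mean per group over all 12 libraries; common biological coefficient of variation 0.267). Benjamini-Hochberg adjustment was over 16546 genes, with a threshold of 0.05. SE was derived from the F statistic, and 95% intervals from it. CPM per kb divides by the merged exons of GENCODE. Correlations used log2(CPM + 0.5). The fit was tested on simulated libraries drawn independently, without an Xist division or near-alike pairs, so that test does not cover these features. The members and lists were chosen with earlier results of these data known. Named genes are the 10 members and, of every other list, the 2 highest in CPM and the 2 with the lowest averaged p. The 3 genes most correlated with each member of at least 1 CPM are also named. Not all are given. Adgre1, Csf1r, Cd68, Mcpt4, Cxcl1, Clec9a, Clec12a, Clec2d, Trem3 and Nbeal2 fall outside that rule. So do Gp6, Mpig6b, Alox12, F2rl3, Tbxa2r, Trpc6, Slc35d3 and Mmrn1. Alternatives were DESeq2, other scalings, no filter, fewer groups, a replicate block, a term for or restriction to libraries by Xist (threshold 1 CPM), near-alike libraries and each library left out. Replicate numbers paired the blank libraries of the 2 genotypes (same-numbered libraries deviated from their group means with correlations of 0.59 to 0.65, differently numbered ones with -0.44 to -0.18). In the other pairs of groups the ranges of same-numbered and differently numbered libraries overlapped, so a pairing by number was not shown. For KO blank and KO R300 they were 0.01 to 0.67 and -0.56 to 0.44, which leaves pairing there unsettled. A blocked fit of the blank libraries alone was added after seeing the data.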

Additional observations from a re-analysis of the deposited data

How the results depend on the processing

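No member changed its side of the threshold under any alternative for R300 against blank in WT or in KO, for either genotype comparison or for the difference of responses. In the averaged comparison Clec1b passed under 5 of 20 alternatives and Ppbp under 1, as given above. The number of genes called over all genes moved more. For R300 in WT it was 103, and 363 with DESeq2, 43 with only the groups compared, 347 with a term for libraries without Xist, 243 with only libraries with Xist, and 28 without WT R300 3 and KO R300 2. For R300 in KO it was 138, and 442, 39, 450, 287 and 34 under the same 5 alternatives. Averaged over genotypes it was 603, and 1222 with DESeq2, 1492 with the Xist term, 1005 with only libraries with Xist, and 157 without the 2 near-alike libraries. KO against WT had 0 calls in R300 and in blank cells, and 14 and 4 with DESeq2, 1 and 1 without the filter, and 0 and 1 with the Xist term. Leaving out each library in turn gave 33 to 135 calls in WT, 45 to 177 in KO and 311 to 862 averaged. In WT, dropping blank 1, R300 1 or R300 3 of WT gave 33 each, dropping blank 2 or 3 of WT 45 and 56, and dropping R300 1 or 2 of KO 61 and 59. In KO, dropping R300 1 or 3 of WT gave 81 and 85, blank 1 or 3 of KO 58 and 85, and R300 1 or 2 of KO 45 and 51. Averaged, dropping R300 1 or 3 of WT gave 311 and 323, and R300 1 or 2 of KO 315 and 321. Library totals alone gave 339 higher of 684 averaged calls, against 402 of 603 with TMM. DESeq2 gave 711 higher of 1222, and the split for R300 in KO was 86 of 118 with library totals, against 115 of 138. The cause of these shifts was not tested.

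Small log2 values changed sign, none of them called. With single libraries left out, R300 in WT gave -0.08 to 0.47 for Pf4, -0.48 to 0.21 for Gp1ba and -0.72 to 0.03 for Treml1. R300 in KO gave -0.30 to 0.32 for Itgb3 and -0.30 to 0.24 for Gp1ba, and the average -0.29 to 0.08 for Gp1ba. KO against WT in R300 gave -0.22 to 0.10 for Itga2b, -0.26 to 0.43 for Gp1ba and -0.20 to 0.39 for Clec1b. In blank cells it gave -0.35 to 0.32 for Ppbp, -0.29 to 0.25 for Gp1ba, -0.29 to 0.32 for Tubb1, -0.60 to 0.27 for Treml1 and -0.30 to 0.76 for Clec1b. The difference of responses ran from -0.24 to 0.33 for Pf4, -0.05 to 0.29 for Itga2b, -0.29 to 0.40 for Gp1ba and -0.62 to 0.44 for Clec1b. Without the 2 near-alike libraries, Gp1ba was 0.21 (R300 in WT), 0.10 (averaged) and -0.19 (KO against WT in R300), and Itga2b 0.01 in the last. With only libraries with Xist, Gp1ba was 0.05 (R300 in KO), -0.10 (KO against WT in blank) and 0.34 (difference of responses), Itga2b 0.23 (KO against WT in R300) and Tubb1 0.34 (KO against WT in blank). With the Xist term, Ppbp and Gp1ba were 0.00 (KO against WT in blank), and Gp1ba 0.07 (difference of responses).

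With the replicate number as a block (a replicate block), 119 genes were called in WT, 141 in KO and 667 averaged. Sign changes under the block were 0.00 for Gp1ba and 0.02 for Treml1 (R300 in WT), 0.03 for Itgb3 (R300 in KO), 0.00 for Gp1ba (KO against WT in R300), -0.01 for Ppbp and 0.00 for Tubb1 (in blank), and -0.01 for Pf4 and 0.02 for Clec1b (difference of responses). Correlations of same-numbered libraries were over 0.1 in 1 of 3 pairs for R300 against blank in WT (-0.53 to 0.42), 2 of 3 in KO (0.01 to 0.67) and 1 of 3 between the R300 groups (-0.72 to 0.41). Between the blank groups, whose numbers paired, a replicate block in a fit of those libraries alone called 0 genes for KO against WT, with Ppbp at -0.01, and it changed no call. The log2 ratio of the summed members was 0.00 to 0.43 in WT and 0.05 to 0.46 in KO with single libraries left out. Comparisons of only 2 groups do not apply to the averaged change or the difference of responses. With counts of 0 to 15 in a library, Gp9, Gp5 and Tubb1 limit what a ratio can show at this depth.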

Other observations

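Levels of several members differed between libraries with and without Xist. Mean levels over the 8 libraries with Xist and the 4 without were 94.6 and 48.4 CPM for Pf4, 2.54 and 0.942 CPM for Ppbp, 1.41 and 2.34 CPM for Gp1ba, and 2.35 and 4.27 CPM for Treml1. In each of the 4 groups, the library without Xist was the lowest for Pf4 and Ppbp and the highest for Gp1ba and Treml1. Itga2b (2.38 and 2.28 CPM) and Itgb3 (5.96 and 6.10 CPM) were closer in both. These values were chosen after they were seen, and the difference between the 2 kinds of library was not tested.

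Members correlated in opposite directions over the 12 libraries, as a description. Pf4 had a Pearson r of -0.73 with Gp1ba and -0.68 with Treml1, Ppbp had -0.65 with Gp1ba, and Itga2b and Itgb3 had 0.57 with each other.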
